A study of Mus musculus with 16 samples.

Results

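Whether the striatum moves from day 3 to day 15 after an ATP injury in the same way in wild-type (WT) mice and in mice labelled GS was asked of 8 of the 16 RNA-seq libraries of the series. The members were chosen by their labels: both replicates of WT and of GS at 3 d, and both at 15 d. The quantity examined for each gene is the GS change (15 d minus 3 d) minus the WT change, called the interaction below, on the log2 scale. A negative interaction means that the 15 d level stood lower relative to the 3 d level in GS than in WT, and a positive one the reverse.

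GS was read as the LRRK2 G2019S genotype that the series title names, and the table's columns marked NT were read as WT. All 8 libraries come from striatum that had received 0.8 µl of 500 mM ATP on 1 side under tribromoethanol anaesthesia, 3 d earlier in the WT 3 d and GS 3 d groups and 15 d earlier in the WT 15 d and GS 15 d groups. No group of these 8 is without injury. The labels do not say how the GS allele was made, how old the mice were, of which sex, or whether tissue was pooled. The replicates are labelled biological, but nothing says that they came from separate animals, so p-values measure only the spread between these samples.

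LRRK2 is a large kinase that phosphorylates a set of Rab GTPases on vesicles and lysosomes, and the G2019S change in its kinase domain raises that activity and is a cause of inherited Parkinson's disease. Extracellular ATP is a danger signal that microglia sense through P2 receptors. In the days after such an injury microglia and infiltrating macrophages multiply and clear debris, astrocytes become reactive, and later the tissue turns to lipid-handling microglia, scar formation and myelin repair. Type I interferon is one signal of that response: it acts through factors that include STAT2 and IRF9 on genes that carry an interferon-stimulated response element.

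Total counts of the 8 libraries ran from 49220578 to 63948110, and mitochondrial genes took 10.3 to 12.9% of them. Replicates correlated at Pearson r = 0.990 to 0.993 across genes (log2 CPM, counts scaled to library size) but differed beyond counting noise, with a chi-square per degree of freedom of 15.1 to 33.7. The striatal markers were present in every library: Drd1 lay between 188 and 302 CPM, Adora2a between 234 and 293 CPM and Ppp1r1b between 1296 and 1904 CPM. WT 3 d replicate 1 stood apart from WT 3 d replicate 2 in several injury lists. Its mean log2 level of cell cycle genes was -0.14 against the mean of the 8 libraries, where replicate 2 was at 0.98, while its C3, Lcn2 and Il1rn levels were several times those of every other 3 d library (values below). The results most affected are given without it as well.

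The change from 3 d to 15 d had much in common between the genotypes. Averaged over WT and GS, 1190 of 18646 genes tested (6.38%) changed, 667 up and 523 down, by edgeR's quasi-likelihood test at a Benjamini-Hochberg adjusted p under 0.05. In WT alone 129 genes (0.692%) changed, and 128 of them had the same sign in GS. An unadjusted p under 0.05 in GS was found for 112 of the 129, against 15.3% of all genes. In GS alone 50 genes (0.268%) changed, 15 of them down (0.0804%), and 49 had the same sign in WT. The 29 genes called in both were 22.5% of the WT calls and 58% of the GS calls. Across the 15350 genes with a mean of at least 1 CPM the WT and GS changes correlated at r = 0.67, a description across genes, which are not independent. The numbers of calls depended on single libraries. Without WT 15 d replicate 2 the WT count was 16 and without WT 3 d replicate 2 it was 316, and the GS count was 0 without GS 3 d replicate 2 or GS 15 d replicate 2 and 279 without WT 3 d replicate 1. The average count was 731 without WT 3 d replicate 1, 400 without GS 3 d replicate 2, 450 without WT 15 d replicate 2, 453 without GS 15 d replicate 1 and 247 without GS 15 d replicate 2.

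The interaction passed the test for 0 of 18646 genes (0%) in edgeR, while 539 (2.89%) had an unadjusted p under 0.05, 252 (1.35%) of them positive and 287 (1.54%) negative. DESeq2 called 12 genes (0.0644%), limma-voom 0, and edgeR without WT 3 d replicate 2 called 4 (Rsad2, C3, Lcn2 and Slc4a11). The DESeq2 calls were Ifit1, Ifit2, Rsad2, Iigp1, Enpp2, Robo3, Snrpn, Lars2, Rn18s-rs5 and Gm15564 below 0, and Fam129a and Baiap3 above 0. Over all genes the median interaction was 0.01, the median of its absolute value 0.13 and the median SE 0.21. With 2 libraries per group an estimate of that median absolute size cannot be told from 0. All interactions below are therefore given as estimates with their SE or 95% interval, and none of them passed the adjusted threshold in edgeR.

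**Figure D1:**
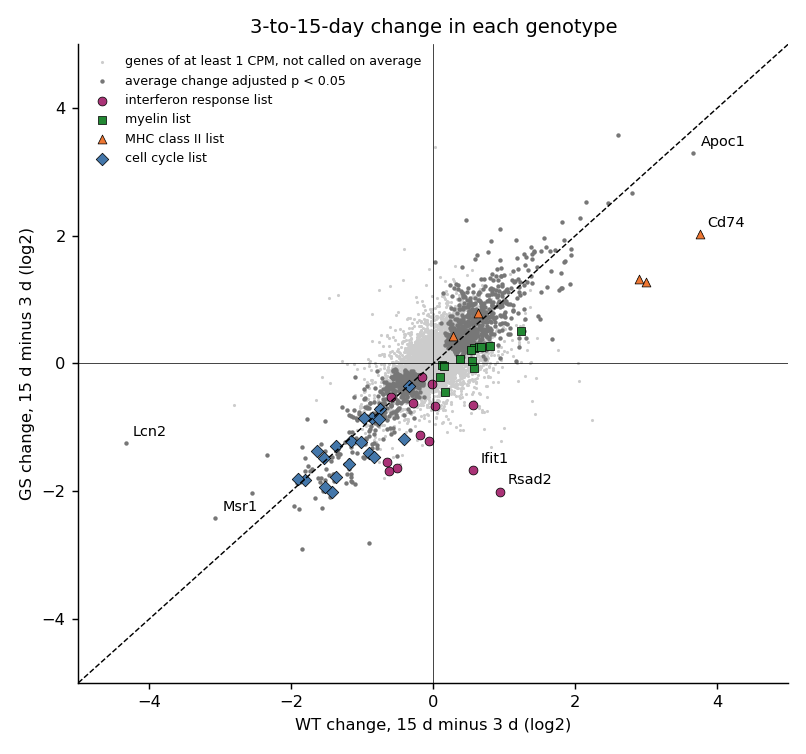
Each point is 1 gene, with its WT change from 3 d to 15 d (log2) on the horizontal axis and its GS change (log2) on the vertical axis; the dashed line marks equal change. Cell cycle genes lie along the line at the lower left, while Rsad2 and Ifit1 lie at the lower right, and myelin and 3 MHC class II genes lie below the line.

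The genes that moved most had the same sign in both genotypes. Of the 131 genes that rose at least 2-fold on average, all had the same sign in WT and GS, with a median change of 1.29 in WT and 1.33 in GS. Their median interaction was 0.12 (interquartile range -0.24 to 0.40), with 80 above 0 and 51 below. The 108 genes that fell at least 2-fold had median changes of -1.37 in WT and -1.47 in GS, and a median interaction of -0.19 (interquartile range -0.46 to 0.08), with 36 above 0 and 72 below. These sets were chosen on the average change, so the agreement in sign follows partly from the choice.

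Apoc1, an apolipoprotein of lipid-laden macrophages, was at 1.62 and 1.98 CPM in WT 3 d and 13 and 32.8 CPM in WT 15 d. It was at 2.79 and 2.63 CPM in GS 3 d and 18.1 and 34.8 CPM in GS 15 d. The groups did not overlap between the days in either genotype, and Apoc1 rose by 3.66 ± 0.45 (SE, log2, here and below) in WT and by 3.29 ± 0.43 in GS, an interaction of -0.38 ± 0.59 (95% interval -1.70 to 0.95). Lag3, an inhibitory receptor that binds MHC class II, rose in both (WT 2.80 ± 0.28, GS 2.67 ± 0.28), and so did the chemokine Ccl6 (2.46 ± 0.28 and 2.52 ± 0.28). Their interactions of -0.13 ± 0.38 and 0.05 ± 0.38 leave room, within the 95% intervals, for differences of up to -0.98 and 0.90. Itgad, an integrin alpha chain of macrophages, rose by 2.60 ± 0.40 in WT and 3.58 ± 0.41 in GS. Fmod, a matrix proteoglycan, and St8sia6, a sialyltransferase, rose in both genotypes too, with interactions of 0.38 ± 0.36 and 0.21 ± 0.39.

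Among the genes that fell was Msr1, a scavenger receptor of macrophages, which stood at 21.7 and 36.6 CPM in WT 3 d against 2.80 and 4.17 CPM in WT 15 d. It stood at 30.2 and 51.3 CPM in GS 3 d and 5.58 and 9.67 CPM in GS 15 d. It fell by 3.07 ± 0.37 in WT (adjusted p = 0.0115) and by 2.42 ± 0.35 in GS (adjusted p = 0.0324), and the genotypes overlapped at 3 d while both GS libraries lay above both WT libraries at 15 d. F13a1, a transglutaminase of infiltrating macrophages, fell by 1.92 ± 0.30 in WT and 1.87 ± 0.29 in GS, with an interaction of 0.04 ± 0.41. Thbs1 (thrombospondin) fell in GS (-2.91 ± 0.44, adjusted p = 0.0474) and was at -1.86 ± 0.44 in WT (adjusted p = 0.0942). The interaction of Thbs1 was -1.05 ± 0.61. The complement receptor C5ar1 and the mitotic genes Hmmr, Cep55 and Fignl1 fell on average, with interactions between -0.69 ± 0.82 (Fignl1) and 0.53 ± 0.60 (C5ar1).

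Lrrk2 itself was at 211 and 159 CPM in WT 3 d and at 114 and 112 CPM in WT 15 d. It was at 174 and 179 CPM in GS 3 d and 125 and 115 CPM in GS 15 d. The days did not overlap in either genotype. Lrrk2 (chr15:91672791-91816124, mm10) fell in WT by 0.72 ± 0.12 (adjusted p = 0.0327). In GS the change was -0.56 ± 0.12 (adjusted p = 0.0858), and the interaction was 0.15 ± 0.17 (95% interval -0.22 to 0.53). Without WT 3 d replicate 1, the highest library, the interaction was -0.07. The counts do not show the GS allele, so the level of Lrrk2 does not check the genotype labels.

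Of the LRRK2 and Rab pathway list, 18 of 18 genes were measured and 0 had an interaction with an unadjusted p under 0.05. Their median was 0.04, with 12 above 0 and 6 below, against 51.2% above and 48.8% below 0 over all genes. Rab8a, a main LRRK2 substrate, was at 38.1 and 39.5 CPM in WT 3 d, 33.8 and 37.7 CPM in WT 15 d, 37.8 and 37.1 CPM in GS 3 d and 38.2 and 39.5 CPM in GS 15 d. It had the smallest unadjusted p of the list, with an interaction of 0.17 ± 0.12 (95% interval -0.11 to 0.44). The interactions of Rab43, Lrrk1 (the paralogous kinase) and Rab35 were 0.16 ± 0.14, 0.38 ± 0.38 and 0.09 ± 0.10.

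Interferon-induced genes stood lower at 15 d relative to 3 d in GS than in WT in nearly every member. Of 13 genes measured of the 14 in the interferon response list, 12 had a negative interaction and 1, Ifitm3, a positive one (0.07 ± 0.42). The median was -0.93, and 5 were negative with an unadjusted p under 0.05, against 1.54% of all genes. The list stood higher in GS than in WT at 3 d in 13 of 13 genes (median difference 0.39) and at 15 d in 3 of 13 (median -0.45). The 3 d difference was not particular to this list. All measured genes of homeostatic microglia (13), disease-associated microglia (14), lysosome (18) and cell cycle (19) also stood higher in GS at 3 d. Of striatal projection neuron genes 1 of 18 did, and of immediate early genes 2 of 17. In a list of 33 further interferon-induced genes, written after the values of these genes had been seen and so no separate support, 32 were negative and 1, Gbp5, was positive (median -0.97).

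Rsad2 (viperin), an antiviral enzyme that blocks viral RNA synthesis, lies at chr12:26442743-26456452. It was at 1.23 and 2.33 CPM in WT 3 d and at 3.00 and 3.89 CPM in WT 15 d. It was at 4.38 and 5.82 CPM in GS 3 d and 1.27 and 1.26 CPM in GS 15 d. Both WT libraries were thus higher at 15 d than at 3 d and both GS libraries lower, with no overlap; 268 of all genes (1.44%) had this pattern. The change was 0.94 ± 0.30 in WT (adjusted p = 0.184), and Rsad2 fell by 2.01 ± 0.31 in GS (adjusted p = 0.0474). The interaction of Rsad2 was -2.95 ± 0.43 (95% interval -3.91 to -1.99, adjusted p = 0.424 in edgeR, 1.58e-06 in DESeq2). Leaving out each of the 8 libraries gave between -3.50 and -2.57.

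Ifit1, which binds viral RNA that lacks the host's cap methylation, was at 2.85 and 4.76 CPM in WT 3 d and 4.24 and 7.05 CPM in WT 15 d. It was at 6.12 and 9.34 CPM in GS 3 d and 2.53 and 2.31 CPM in GS 15 d, so the WT days overlapped and the GS days did not. Its interaction was -2.23 ± 0.45 (95% interval -3.23 to -1.23, adjusted p = 1 in edgeR and 0.000698 in DESeq2). Iigp1, an immunity-related GTPase that attacks the membranes around intracellular parasites, was at 1.65 and 3.08 CPM in WT 3 d, 4.31 and 4.03 CPM in WT 15 d, 3.44 and 4.16 CPM in GS 3 d and 1.68 and 1.37 CPM in GS 15 d. Its interaction was -2.13 ± 0.41 (95% interval -3.03 to -1.22). Tgtp2, a GTPase of the same family, was at 0.644 and 1.22 CPM in WT 3 d, 2.03 and 1.58 CPM in WT 15 d, 1.76 and 2.03 CPM in GS 3 d and 0.821 and 0.806 CPM in GS 15 d. The days did not overlap for Iigp1 and Tgtp2 in either genotype, and they moved in opposite directions. Tgtp2 (interaction -2.17 ± 0.46, 95% interval -3.18 to -1.15) and Tgtp1 (-2.0 ± 0.49) are near-identical copies whose reads may be shared, so the pair counts as 1 observation.

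Less far apart were other members. Rtp4, an interferon-induced chaperone, was at 3.60 and 5.56 CPM in WT 3 d, 3.93 and 4.89 CPM in WT 15 d, 5.23 and 6.83 CPM in GS 3 d and 2.07 and 3.11 CPM in GS 15 d, an interaction of -1.16 ± 0.39 (95% interval -2.02 to -0.30). The days of Rtp4 overlapped in WT and were apart in GS. Ifit2 (-1.51 ± 0.39, 95% interval -2.38 to -0.64) and Mx2 (-1.41 ± 0.36, 95% interval -2.20 to -0.61) had interactions in the same direction. Stat2 and Irf9, which carry the signal to the nucleus, were at -0.30 ± 0.17 and -0.05 ± 0.20.

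**Figure D2:**
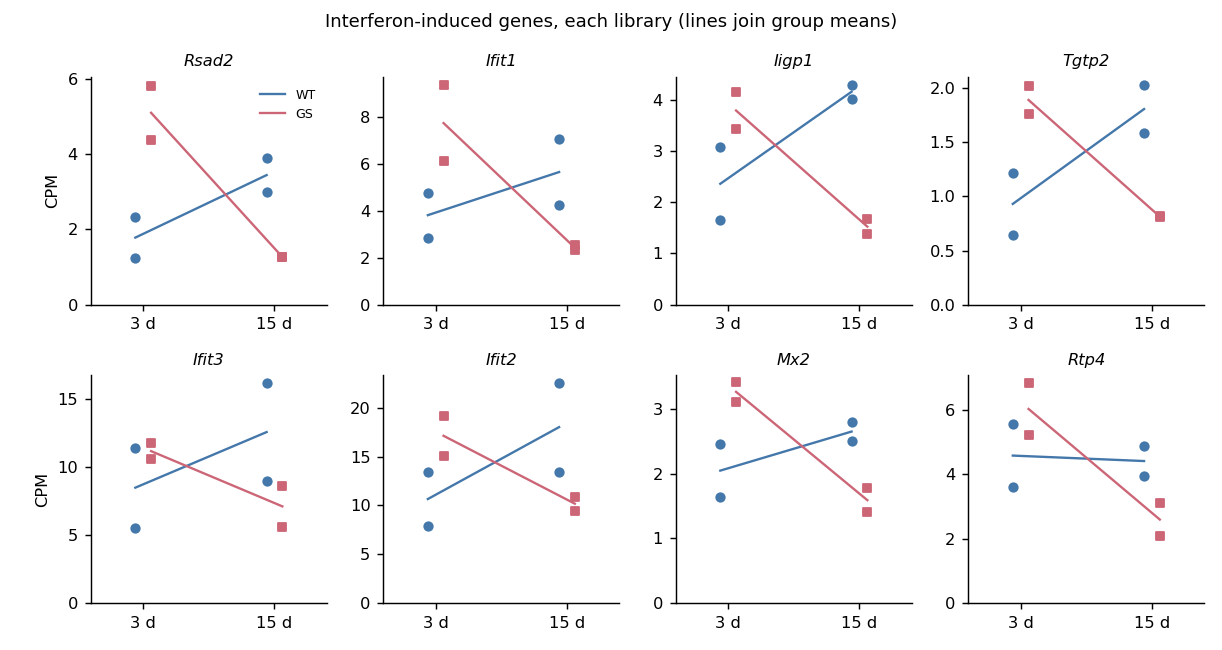
CPM (vertical axis) at 3 d and 15 d (horizontal axis) of 8 interferon-induced genes; each point is 1 library, and lines join the group means of WT and GS. In GS the 15 d libraries of Rsad2 lie at 1.26 to 1.27 CPM, below both GS 3 d libraries, while in WT the 15 d libraries lie above both 3 d libraries.

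Promoters of these genes are shown because the interferon signal acts on a short element there. In RefSeq promoters (GRCm38.p6) the 250 bases before each start were searched on both strands for the core of the interferon-stimulated response element, GAAANNGAAA, where N is any base. RefSeq windows were matched by symbol for 10 of the 13 interferon response genes. A match was found in 6 of these 10 genes (60%) and in 15 of 26 genes of the added list (57.7%). Of the genes tested 417 of 13245 (3.15%) held a match, as did 978 of all 32851 windows (2.98%). Both lists were written as interferon-induced genes, so the higher share describes how they were chosen and is no support for the interaction. A match was found in 0 of 3 MHC class II and 0 of 10 myelin genes, which says only that these letters are not in those windows. Of the genes above and Ifit3, 4 windows follow, from 160 to 61 bases before the start, read 5′ to 3′ along the gene with the matches in capitals (Ifit3, with an interaction of -1.22 ± 0.50, lies outside the rule for named genes). All 4 hold a match, so they do not represent the lists, where 6 of 10 and 15 of 26 genes did. Windows of the other interferon-induced genes are not printed.
Rsad2, chr12:26456513-26456612, minus strand: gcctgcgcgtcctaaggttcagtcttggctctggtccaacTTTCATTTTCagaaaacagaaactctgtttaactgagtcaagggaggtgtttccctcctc
Ifit1, chr19:34640729-34640828, plus strand: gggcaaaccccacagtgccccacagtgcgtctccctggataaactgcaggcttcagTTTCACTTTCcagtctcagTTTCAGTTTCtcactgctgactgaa
Ifit3, chr19:34583369-34583468, plus strand: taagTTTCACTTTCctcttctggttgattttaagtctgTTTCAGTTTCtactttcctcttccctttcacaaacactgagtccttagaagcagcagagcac
Tgtp2, chr11:49064273-49064372, minus strand: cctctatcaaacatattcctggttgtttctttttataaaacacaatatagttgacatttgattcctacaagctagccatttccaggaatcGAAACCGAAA
The Ifit1 and Ifit3 windows each hold 2 matches and the Rsad2 and Tgtp2 windows 1 each, and a match is a description of the letters, not a site shown to be bound.

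Levels of the interferon list also varied between replicates. Its mean log2 level against the mean of the 8 libraries was -0.36 and 0.42 in WT 3 d, 0.35 and 0.74 in GS 3 d, -0.29 and 0.27 in WT 15 d, and -0.88 and -0.24 in GS 15 d. WT overlapped between the days and GS did not. The median interaction stayed negative with any 1 library left out, between -1.47 (without WT 3 d replicate 2) and -0.54 (without WT 3 d replicate 1), and the 5 members with an unadjusted p under 0.05 became 2 (without GS 3 d replicate 2 or GS 15 d replicate 1) to 9 (without WT 3 d replicate 2). That number was 3 without WT 3 d replicate 1 or WT 15 d replicate 2 and 8 without GS 15 d replicate 2. The median of the 33 added genes was -0.59 without WT 3 d replicate 1, -0.57 without GS 3 d replicate 2 and -0.55 without WT 15 d replicate 2. In bulk tissue fewer cells of a type and less RNA per cell cannot be told apart, here and below. Of blood cell markers, 8 of 13 monocyte and macrophage genes were measured, with a summed level of 173 to 249 CPM in WT 3 d, 273 to 437 CPM in GS 3 d, 194 to 396 CPM in WT 15 d and 395 to 628 CPM in GS 15 d. The sum does not follow the typical member: 5 of these 8 genes fell and 1 rose on average, against 2.8% and 3.58% of all genes. Their median change was -0.98 in WT and -1.02 in GS. Lymphocyte markers measured were 2 of 12 (Cd4 and Lck, summed 70.5 to 87.6 CPM over the 8 libraries) and neutrophil markers 1 of 8 (Mmp9). The part of these cells in the interferon values was not tested.

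MHC class II genes, which present antigen to CD4 T cells, had the largest negative list median, -1.58, with 5 of 7 genes measured. H2-Aa and H2-Ab1, the chains of the class II molecule, and Cd74 were the 3 that were negative with an unadjusted p under 0.05, against 1.54% of all genes. H2-DMa (0.16 ± 0.17) and H2-DMb1 (0.17 ± 0.40), which load peptides onto that molecule, were above 0. Cd74, the invariant chain, was at 2.96 and 6.65 CPM in WT 3 d and 90 and 40.2 CPM in WT 15 d. It was at 8.84 and 12.8 CPM in GS 3 d and 43.3 and 44.2 CPM in GS 15 d. It was thus higher in both GS than in both WT libraries at 3 d, and overlapped between genotypes at 15 d. Cd74 rose by 3.75 ± 0.42 in WT (adjusted p = 0.01) and was at 2.02 ± 0.39 in GS (adjusted p = 0.0712), an interaction of -1.73 ± 0.55 (95% interval -2.95 to -0.51).

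H2-Aa was at 1.17 and 2.65 CPM in WT 3 d, 22.2 and 8.45 CPM in WT 15 d, 2.44 and 4.16 CPM in GS 3 d and 9.01 and 6.94 CPM in GS 15 d, and its interaction was -1.72 ± 0.66 (95% interval -3.20 to -0.25). H2-Ab1 had an interaction of -1.58 ± 0.52 (95% interval -2.73 to -0.43). For these 3 genes WT 15 d replicate 1 was the highest library. Without it the list median was -0.86, and without WT 3 d replicate 2 it was -2.25. WT 15 d replicate 1 also had the highest level of cortex markers (below). With that level as a covariate the median was -0.82, and the 3 members with an unadjusted p under 0.05 became 0, as they did without GS 3 d replicate 2, and 1 without WT 15 d replicate 1.

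MHC class I genes, which present antigen to CD8 T cells, had a smaller median of -0.26, with 8 of 10 below 0 and 0 with an unadjusted p under 0.05. The lowest were Nlrc5 (-0.78 ± 0.46), the regulator of the class I genes, and the peptide transporter Tap1 (-0.76 ± 0.40). The immunoproteasome subunits Psmb9 and Psmb8 were at -0.41 ± 0.35 and -0.42 ± 0.37. The list median ranged from -0.56 to -0.02 when 1 library was left out.

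Disease-associated microglia genes, which serve lipid handling and debris uptake, had a positive median change in both genotypes. Of the 18 members of this list Cst7, Itgax, Clec7a and Gpnmb were not measured, so the values do not cover them. Of the 14 disease-associated microglia genes measured, 8 rose on average, against 3.58% of all genes. The median change was 0.41 in WT and 0.55 in GS. Their median interaction was 0.08 with 0 of 14 at an unadjusted p under 0.05, and its sign turned when 1 of 4 libraries was left out (-0.26 to 0.60). Apoe, the lipid carrier, was at 1187 and 1604 CPM in WT 3 d, 3494 and 6276 CPM in WT 15 d, 1578 and 1285 CPM in GS 3 d and 5606 and 7664 CPM in GS 15 d. Apoe rose by 1.81 ± 0.27 in WT (adjusted p = 0.0204) and 2.21 ± 0.27 in GS (adjusted p = 0.0165), an interaction of 0.40 ± 0.37. The growth factor Igf1 (0.64 ± 0.31), the adaptor Tyrobp (0.36 ± 0.44) and the lectin Lgals3 (0.36 ± 0.64) had positive interactions with 95% intervals that include 0.

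Homeostatic microglia genes had a median interaction of -0.05, with 6 of 13 above 0. At both days 13 of 13 stood higher in GS than in WT (medians 0.41 and 0.45), differences that did not pass the test for any of them. Lists most like it did the same. All 14 disease-associated microglia genes (medians 0.33 and 0.45) and all 8 monocyte and macrophage genes (0.45 and 0.44) stood higher in GS at both days. Of the lysosome list 18 of 18 did at 3 d and 17 of 18 at 15 d (0.35 and 0.48). The ATP and ADP receptor P2ry12 was at 62.6 and 105 CPM in WT 3 d, 71.3 and 80.5 CPM in WT 15 d, 119 and 138 CPM in GS 3 d and 90 and 101 CPM in GS 15 d. GS was above WT at both days, and the interaction was -0.29 ± 0.27. P2ry13 and Siglech were at -0.39 ± 0.24 and -0.22 ± 0.24. WT 3 d replicate 1 was the lowest library of this list (-0.63 against the mean of the 8), and without it the list median was 0.23 with 12 of 13 above 0. Without WT 3 d replicate 2 the median was -0.40 with 13 of 13 below 0, 5 of them at an unadjusted p under 0.05, and with the cortex covariate it was -0.30 with 13 below 0, so the sign for this list depends on single libraries too.

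Of the monocyte and macrophage list 5 of 8 genes fell on average, against 2.8% of all genes. The median change was -0.98 in WT and -1.02 in GS, and the median interaction -0.05. Ly6c2, a marker of inflammatory monocytes, was at -0.23 ± 0.41 and Cd44, a hyaluronan receptor, at 0.25 ± 0.30. Genes for the uptake of dead cells (12 of 13 measured, median 0.03), lysosomal enzymes and membrane proteins (18 of 20, median 0.04) and cholesterol handling (14 of 14, median -0.03) had 0 members with an unadjusted p under 0.05. For genes of pro-resolving mediators, their enzymes and receptors (14 of 16 measured) the median was 0.17, with 11 above 0, and 0 had an unadjusted p under 0.05. It was 0.02 without GS 15 d replicate 2, 0.09 without WT 15 d replicate 1, 0.49 without WT 15 d replicate 2, 0.27 without GS 15 d replicate 1 and -0.08 with the cortex covariate.

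Cell division genes fell in the average over the genotypes. Of 19 measured, 16 fell, against 2.8% of all genes. The median change was -1.16 in WT and -1.38 in GS, and 7 had an interaction above 0 and 12 below (median -0.05). Ccna2, the cyclin of S phase and mitotic entry, was at 9.71 and 19.2 CPM in WT 3 d, 7.51 and 7.97 CPM in WT 15 d, 15.3 and 21.9 CPM in GS 3 d and 7.24 and 6.85 CPM in GS 15 d. Its interaction was -0.49 ± 0.39, and those of Tyms (thymidylate synthase), Aurka and Bub1 (mitotic kinases) were -0.77 ± 0.41, -0.62 ± 0.54 and -0.59 ± 0.55. WT 3 d replicate 1 lay below the other 3 d libraries in these genes. The median was 0.19 without it and -0.80 without WT 3 d replicate 2, so the sign for this list depends on single libraries.

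**Figure D3:**
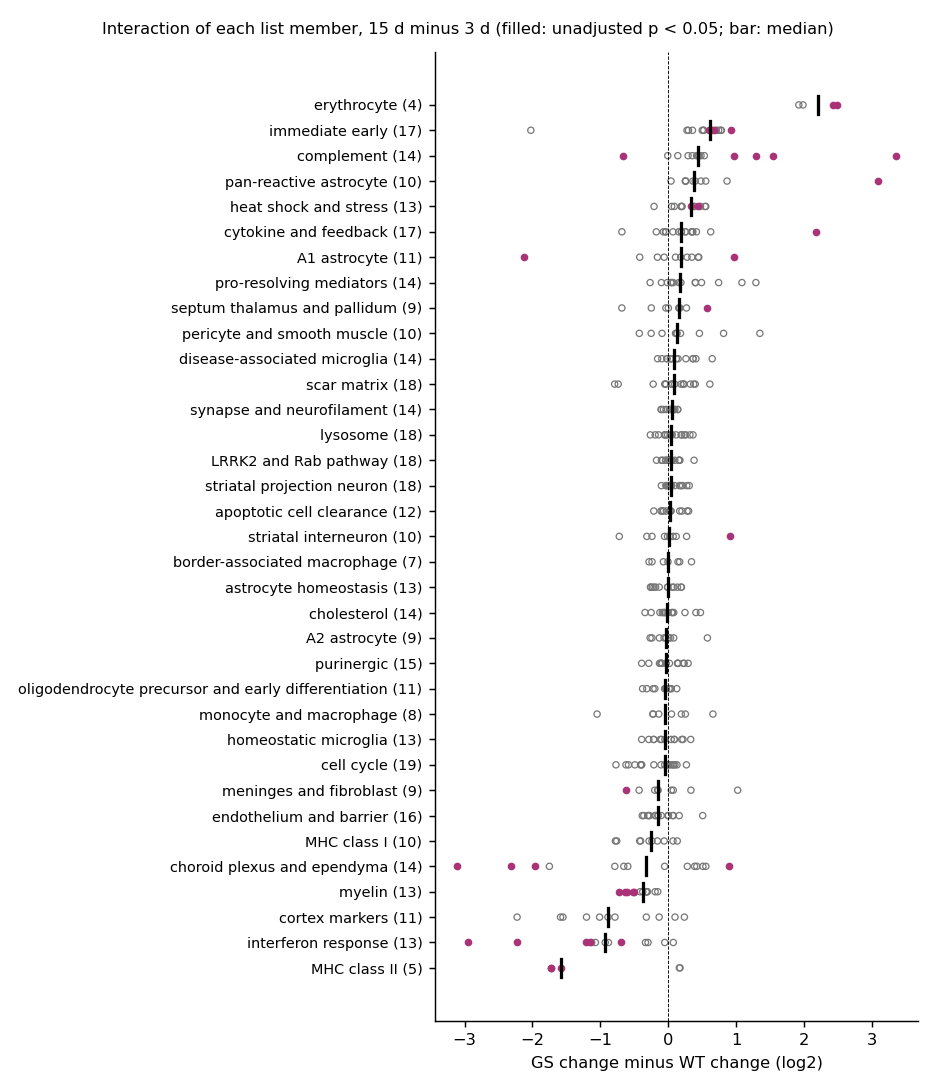
Each point is the interaction (log2, horizontal axis) of 1 measured gene of the list named on the vertical axis, with the number measured in parentheses; filled points have an unadjusted p under 0.05 and bars mark list medians. The medians run from -1.58 for MHC class II to 2.20 for the 4 erythrocyte genes, and most other lists lie near 0.

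Complement genes, of the innate cascade that tags debris for uptake, leaned the other way: 12 of 14 had a positive interaction (median 0.44), 4 of them with an unadjusted p under 0.05 against 1.35% of all genes. The negative ones were Cd55 (-0.67 ± 0.25, 95% interval -1.23 to -0.12), which shields host cells, and C3ar1 (-0.01 ± 0.54). Serping1, the C1 inhibitor, was at 11.2 and 7.75 CPM in WT 3 d and 13.3 and 19.0 CPM in WT 15 d. It was at 5.51 and 8.05 CPM in GS 3 d and 17.6 and 27.6 CPM in GS 15 d. Serping1 rose by 1.74 ± 0.28 in GS (adjusted p = 0.0474) and was at 0.77 ± 0.27 in WT (adjusted p = 0.229), an interaction of 0.97 ± 0.39 (95% interval 0.10 to 1.83).

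C3, the central component, was at 71.5 and 4.59 CPM in WT 3 d, 25.5 and 52.0 CPM in WT 15 d, 4.45 and 5.73 CPM in GS 3 d and 38.5 and 67.6 CPM in GS 15 d. A single library, WT 3 d replicate 1, stood above all 15 d libraries, while the other 3 d libraries lay between 4.45 and 5.73 CPM. The interaction of C3 was 3.36 ± 1.23 (95% interval 0.61 to 6.11) with all 8 libraries, 0.31 without WT 3 d replicate 1 and 4.25 (adjusted p = 0.0369) without WT 3 d replicate 2. C1s1, a protease of the C1 complex, was likewise highest in WT 3 d replicate 1 (4.16 against 1.59 CPM), with an interaction of 1.54 ± 0.60 that was 0.69 without it. C1ra, its partner, was at 1.29 ± 0.57 (95% interval 0.01 to 2.56). The list median was 0.08 without WT 15 d replicate 1, 0.91 without WT 15 d replicate 2, 0.12 without GS 15 d replicate 2, 0.22 without WT 3 d replicate 2 and 0.02 with the cortex marker covariate. The 4 positive members with an unadjusted p under 0.05 became 0 with that covariate and without GS 3 d replicate 1, WT 15 d replicate 1 or GS 15 d replicate 2, 1 without WT 3 d replicate 1, 2 without GS 3 d replicate 2 and 10 without WT 15 d replicate 2.

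Reactive astrocyte genes carried the same library. All 10 pan-reactive genes measured of 12 had a positive interaction (median 0.38), 1 of them with an unadjusted p under 0.05 against 1.35% of all genes. That 1 was Lcn2, a secreted iron-siderophore binder, at 37.8 and 7.46 CPM in WT 3 d, 1.10 and 1.14 CPM in WT 15 d, 5.77 and 11.7 CPM in GS 3 d and 3.85 and 3.50 CPM in GS 15 d. Lcn2 fell by 4.33 ± 0.69 in WT (adjusted p = 0.0256) and was at -1.25 ± 0.60 in GS (adjusted p = 0.362), an interaction of 3.08 ± 0.89 (95% interval 1.10 to 5.07). Without WT 3 d replicate 1 it was 1.49, and both WT 15 d libraries lay below both GS 15 d libraries. Serpina3n (0.48 ± 0.30), Cp (0.86 ± 0.43), the copper-binding ferroxidase, and Hspb1 (0.55 ± 0.43) were smaller. Gfap, the intermediate filament of astrocytes, was at 0.04 ± 0.33. The list median was 0.25 without WT 3 d replicate 1, 0.21 without GS 3 d replicate 1, 0.60 without GS 3 d replicate 2, 0.05 without WT 15 d replicate 1, 0.80 without WT 15 d replicate 2, 0.13 without GS 15 d replicate 2 and 0.15 with the cortex covariate.

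The other astrocyte lists and those of vessels, scar matrix, purinergic signalling, interneurons, meninges, and septum, thalamus and pallidum had medians between -0.15 and 0.18, with at most 1 member in each direction at an unadjusted p under 0.05. Among them the A1 astrocyte list, named for neurotoxic astrocytes, holds Iigp1 at one end (-2.13) and Serping1 at the other (0.97). Cytokine and feedback genes had a median of 0.19, with 12 of 17 above 0. Il1rn, the interleukin-1 receptor antagonist, was the only member with an unadjusted p under 0.05. It was at 9.91 and 1.51 CPM in WT 3 d, 0.814 and 0.801 CPM in WT 15 d, 1.73 and 2.61 CPM in GS 3 d and 1.16 and 1.61 CPM in GS 15 d. Its interaction of 2.17 ± 0.96 (95% interval 0.03 to 4.31) was 0.26 without WT 3 d replicate 1. Stat3, Il4ra and Il1a were at 0.25 ± 0.16, 0.62 ± 0.41 and -0.68 ± 0.51. The list median was 0.01 (9 of 17 above 0) without WT 15 d replicate 1, 0.04 without GS 15 d replicate 2, 0.08 without GS 3 d replicate 1, 0.34 without GS 3 d replicate 2, 0.31 without GS 15 d replicate 1 and 0.44 without WT 15 d replicate 2.

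Myelin genes had a negative interaction in 13 of 13 (median -0.38), against 48.8% of all genes. Of the 13, 5 had an unadjusted p under 0.05, against 1.54% of all genes that were negative at that threshold. The 13 stayed negative with any 1 library left out. The median change was 0.55 in WT and 0.06 in GS. At 3 d all 13 stood higher in GS than in WT (median 0.33), and at 15 d 2 of 13 did (median -0.07). The genotypes thus differed in the estimates at the earlier day more than at the later one. Other lists, interferon response and homeostatic microglia among them, also stood higher in GS at 3 d in all their measured genes. Opalin, a membrane protein of mature oligodendrocytes, was at 9.10 and 11.8 CPM in WT 3 d and 24.8 and 24.4 CPM in WT 15 d. It was at 13 and 15.7 CPM in GS 3 d and 22.6 and 18 CPM in GS 15 d. Opalin rose by 1.24 ± 0.16 in WT (adjusted p = 0.0138) and was at 0.50 ± 0.16 in GS (adjusted p = 0.19), an interaction of -0.73 ± 0.23 (95% interval -1.23 to -0.23).

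Mog, an outer myelin surface protein, was at 46.5 and 67.9 CPM in WT 3 d, 81.1 and 89.3 CPM in WT 15 d, 73.2 and 86.0 CPM in GS 3 d and 79.9 and 71.9 CPM in GS 15 d. The WT days did not overlap and the GS days did, with an interaction of -0.64 ± 0.22 (95% interval -1.13 to -0.15). Ugt8a, the enzyme that makes galactocerebroside, was similar (-0.60 ± 0.24, 95% interval -1.13 to -0.08). Gjc3, a connexin of oligodendrocytes that was in no list, was at 38.5 and 43.4 CPM in WT 3 d, 71.5 and 63.5 CPM in WT 15 d, 59.8 and 64.7 CPM in GS 3 d and 67.9 and 62.5 CPM in GS 15 d. WT 3 d lay apart from the other 3 groups, and the interaction of Gjc3 was -0.65 ± 0.14 (95% interval -0.96 to -0.35). Oligodendrocyte precursor and early differentiation genes had a median of -0.05 with 4 of 11 above 0. The myelin median was -0.58 without WT 3 d replicate 2 and -0.26 without WT 15 d replicate 2. The 5 members with an unadjusted p under 0.05 became 1 without GS 3 d replicate 2 or GS 15 d replicate 2, 2 without WT 3 d replicate 1, 3 without WT 15 d replicate 2 and 9 without WT 3 d replicate 2 or WT 15 d replicate 1.

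**Figure D4:**
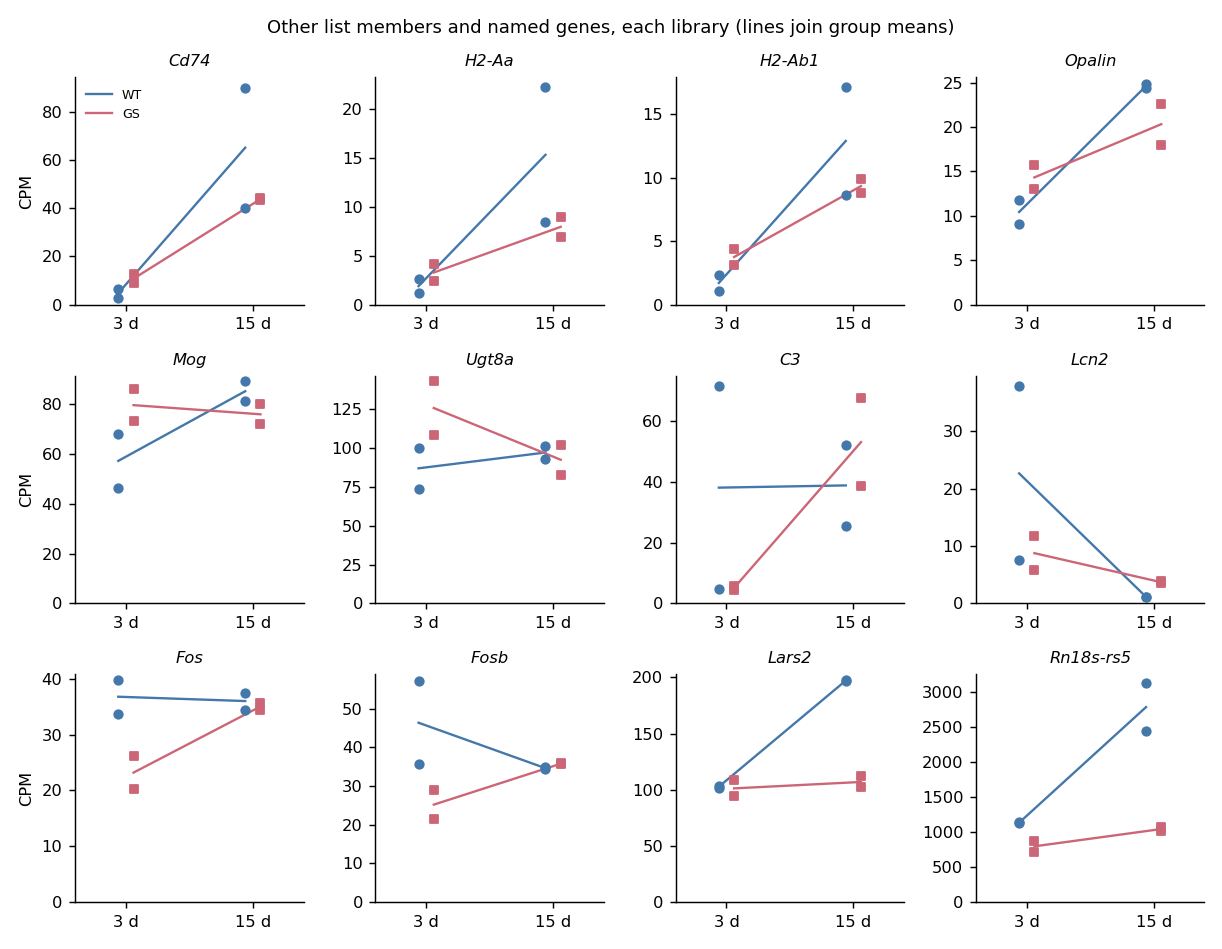
CPM (vertical axis) at 3 d and 15 d (horizontal axis) of 12 genes of other lists and of the rule for named genes; each point is 1 library, and lines join the group means of WT and GS. In Opalin and Mog the WT 3 d libraries are the lowest, in C3 and Lcn2 a single WT 3 d library is high, and Lars2 is higher in both WT 15 d libraries than in all others.

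Neuronal genes of the striatum had small interactions. The 18 projection neuron genes had interactions between -0.10 and 0.31 (median 0.03), with 14 above 0 and 0 at an unadjusted p under 0.05, and the 14 synapse and neurofilament genes lay between -0.11 and 0.14. Immediate early genes, which neurons and glia switch on within minutes of activity or stress, had a positive interaction in 16 of 17 (median 0.61), 5 with an unadjusted p under 0.05 against 1.35% of all genes. The exception was Nr4a2 (-2.02 ± 0.93), which was at 9.27 CPM in WT 15 d replicate 1 and between 0.863 and 2.50 CPM in the others.

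Fos was at 39.8 and 33.7 CPM in WT 3 d, 37.5 and 34.5 CPM in WT 15 d, 26.1 and 20.3 CPM in GS 3 d and 35.7 and 34.4 CPM in GS 15 d. The GS 3 d libraries were the lowest and the other 3 groups overlapped, with an interaction of 0.62 ± 0.18 (95% interval 0.22 to 1.03). Fosb, of the same family of AP-1 factors, was at 57.2 and 35.6 CPM in WT 3 d, 34.4 and 34.8 CPM in WT 15 d, 28.9 and 21.5 CPM in GS 3 d and 35.6 and 35.9 CPM in GS 15 d, an interaction of 0.93 ± 0.28 (95% interval 0.31 to 1.55). Fosl2 (0.67 ± 0.23, 95% interval 0.15 to 1.18) and the neuronal activity factor Npas4 (0.61 ± 0.21, 95% interval 0.14 to 1.09) followed. Of the 17 genes 3 (Fosb, Npas4 and Arc) had both 15 d libraries above both 3 d libraries in GS and below both in WT, as had 222 of all genes (1.19%). GS 3 d replicate 2 was the lowest library of the list (-0.55 against the mean of the 8), and without it the median was 0.32. The 5 members with an unadjusted p under 0.05 became 2 without GS 15 d replicate 2, 3 without GS 3 d replicate 2 or WT 3 d replicate 1, 9 without WT 3 d replicate 2 and 12 without GS 3 d replicate 1.

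Heat shock and stress genes had a positive interaction in 12 of 13 (median 0.33), Trib3 being the exception (-0.21). Hsph1, a co-chaperone, was at 563 and 542 CPM in WT 3 d, 363 and 390 CPM in WT 15 d, 544 and 492 CPM in GS 3 d and 453 and 435 CPM in GS 15 d. It fell by 0.55 ± 0.09 in WT (adjusted p = 0.0256) and was at -0.22 ± 0.09 in GS (adjusted p = 0.279), with an interaction of 0.33 ± 0.12 (95% interval 0.06 to 0.61). Hmox1 (haem oxygenase) fell in both genotypes, by 1.85 ± 0.21 in WT and 1.31 ± 0.21 in GS, with an interaction of 0.54 ± 0.29. Dnajb1 and Hsp90aa1 were at 0.44 ± 0.18 and 0.19 ± 0.12. Without WT 15 d replicate 1 the list median was 0.07, and without WT 3 d replicate 2 0.16.

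By unadjusted p the first negative gene was Lars2, the mitochondrial leucyl-tRNA synthetase, at 102 and 104 CPM in WT 3 d, 197 and 198 CPM in WT 15 d, 94.0 and 108 CPM in GS 3 d and 102 and 112 CPM in GS 15 d. Both WT 15 d libraries lay apart from the other 6. Lars2 rose by 0.94 ± 0.09 in WT (adjusted p = 0.01) and was at 0.08 ± 0.09 in GS, an interaction of -0.86 ± 0.12 (95% interval -1.14 to -0.59, adjusted p = 0.424). Rn18s-rs5, a copy of the 18S ribosomal RNA gene, went with it: 1125 and 1140 CPM in WT 3 d, 2438 and 3135 CPM in WT 15 d, 870 and 720 CPM in GS 3 d and 1012 and 1072 CPM in GS 15 d. Its interaction was -0.91 ± 0.19 (95% interval -1.33 to -0.49), and that of the predicted gene Gm15564 was -1.13 ± 0.21 (95% interval -1.60 to -0.66). In a list of 5 measured ribosomal RNA-related genes, written after these values had been seen, 5 were below 0 (median -0.86). That list holds Lars2, Rn18s-rs5 and Gm15564 themselves, so it is no separate support. The part of the ribosomal RNA level in these values, that of Lars2 included, was not tested.

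Other negative genes were Enpp2 (autotaxin, made by choroid plexus and oligodendrocytes, whose markers are given separately), with an interaction of -0.94 ± 0.21 (95% interval -1.41 to -0.47), and the axon guidance receptor Robo3, at 13.1 and 13.1 CPM in WT 3 d, 24.8 and 16 CPM in WT 15 d, 20.3 and 28.5 CPM in GS 3 d and 15.5 and 14.7 CPM in GS 15 d. Robo3 moved in opposite directions in the genotypes without overlap, with an interaction of -1.34 ± 0.29 (95% interval -1.98 to -0.69). Among positive genes Baiap3, which acts in the release of dense-core vesicles, was at 13.8 and 13.5 CPM in WT 3 d, 14.3 and 15.8 CPM in WT 15 d, 10.3 and 8.29 CPM in GS 3 d and 20.9 and 19.1 CPM in GS 15 d. It rose in GS by 1.11 ± 0.13 (adjusted p = 0.0165) and was at 0.14 ± 0.13 in WT, an interaction of 0.97 ± 0.19 (95% interval 0.55 to 1.39, adjusted p = 1 in edgeR and 0.0136 in DESeq2). Fam129a (Niban), a stress-induced gene, was at 2.50 and 2.81 CPM in WT 3 d, 1.98 and 1.98 CPM in WT 15 d, 1.73 and 2.38 CPM in GS 3 d and 4.18 and 5.99 CPM in GS 15 d, an interaction of 1.73 ± 0.35 (95% interval 0.95 to 2.51).

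The positive genes next in order included the neuropeptides Tac2 (neurokinin B, 1.56 ± 0.36) and Crh (corticotropin-releasing hormone, 2.21 ± 0.54), the insulin receptor substrate Irs4 (1.82 ± 0.43) and the imprinted gene Peg10 (0.65 ± 0.15). Crh and Irs4 had low counts: they did not pass the filter of 1 CPM in all 8 libraries, and DESeq2 gave them no adjusted p. Tac2 rose in GS by 1.58 ± 0.26 (adjusted p = 0.0474). Its WT change was 0.03 ± 0.25. Cd24a, a surface glycoprotein of immature neurons and ependymal cells, was at 0.89 ± 0.20, with GS 3 d (14.5 and 13.9 CPM) below the other groups (19.6 to 29.7 CPM). Bcl2, which blocks apoptosis, fell in WT by 0.57 ± 0.08 (adjusted p = 0.02) and was at -0.12 ± 0.08 in GS, an interaction of 0.45 ± 0.12 (95% interval 0.19 to 0.71). The protocadherin Pcdha12 and the general transcription factor subunit Taf10 were at 0.72 ± 0.19 and 0.50 ± 0.13.

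Markers of cells outside the striatum or in blood differed between libraries as well. Of 11 cortex markers measured of 12, 9 had a negative interaction (median -0.89) and 0 had an unadjusted p under 0.05. Slc17a7, the vesicular glutamate transporter of cortical neurons, was at 8.16 and 5.50 CPM in WT 3 d, 35.4 and 10.7 CPM in WT 15 d, 5.49 and 9.45 CPM in GS 3 d and 12.7 and 4.54 CPM in GS 15 d. WT 15 d replicate 1 stood highest, and without it the list median was -0.20. It was -0.25 without GS 3 d replicate 2, -0.57 without GS 15 d replicate 2, -1.38 without GS 15 d replicate 1 and -0.23 over the 6 markers with at least 1 CPM in all 8 libraries. Choroid plexus and ependyma markers (14 of 14 measured) summed to 104 to 150 CPM in WT 3 d, 249 to 340 CPM in WT 15 d, 121 to 230 CPM in GS 3 d and 128 to 231 CPM in GS 15 d. Their median interaction was -0.33, with 6 above 0 and 8 below. It was 0.11 without GS 3 d replicate 1 and 0.28 over the 9 markers with at least 1 CPM in all 8 libraries. Of the 14, 3 were negative with an unadjusted p under 0.05, against 1.54% of all genes. They were the channel Kcnj13 (-3.11 ± 0.77), Kl (klotho, -1.97 ± 0.57) and the thyroxine carrier Ttr (-2.31 ± 0.92). At the same threshold 1 was positive, the ciliary factor Foxj1 (0.89 ± 0.32), against 1.35% of all genes.

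Globin genes, 4 of 5 erythrocyte markers, had positive interactions throughout (median 2.20), with summed levels of 7.37 to 11.7 CPM in WT 3 d, 3.73 to 5.34 CPM in WT 15 d, 2.85 to 2.97 CPM in GS 3 d and 1.68 to 10.9 CPM in GS 15 d. They rest on GS 15 d replicate 2, without which the median was 0.19, and on copies whose reads may be shared. With the mean cortex marker level as a covariate the interferon response median was -1.44 and the myelin median -0.45, in the same direction as without it. The part of choroid plexus and blood in the results was not tested.

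**Figure D5:**
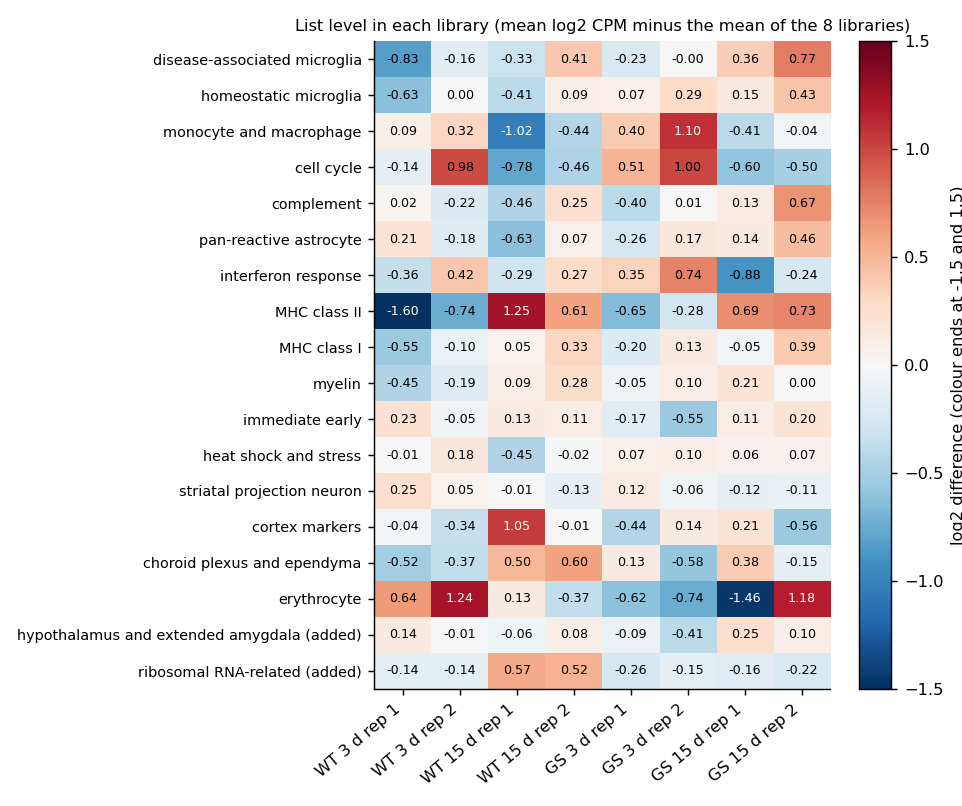
Mean log2 CPM of each list (vertical axis) in each of the 8 libraries (horizontal axis), minus the mean of the 8; colours end at -1.5 and 1.5. Interferon response is at 0.35 and 0.74 in GS 3 d and at -0.88 and -0.24 in GS 15 d, MHC class II is lowest in WT 3 d replicate 1 (-1.60), and the cortex markers are high in WT 15 d replicate 1 (1.05).

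At single days few genes separated the genotypes. GS differed from WT in 1 of 18646 genes at 3 d (0.00536%) and 3 at 15 d (0.0161%) in edgeR, all lower in GS, while 1010 (5.42%) and 530 (2.84%) had an unadjusted p under 0.05, and DESeq2 called 15 (7 higher and 8 lower in GS) and 9 (2 higher and 7 lower). The 3 d count was 0 without WT 3 d replicate 1, 5 without GS 3 d replicate 1 and 15 (1 higher and 14 lower) without WT 3 d replicate 2. The 15 d count was 0 without WT 15 d replicate 2, GS 15 d replicate 1 or GS 15 d replicate 2. Psme4, a proteasome activator, was the gene at 3 d and one of the 3 at 15 d. It was at 66.6 and 66.2 CPM in WT 3 d, 59.1 and 60.0 CPM in WT 15 d, 32.6 and 35.7 CPM in GS 3 d and 31.5 and 31.2 CPM in GS 15 d, so the genotypes were apart at both days. Its difference was -0.96 at 3 d and -0.93 at 15 d, and its interaction 0.03 ± 0.11. Lars2 (-0.88) and Rn18s-rs5 (-1.42) were the others at 15 d.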

How the data were processed

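The authors deposited 1 table of raw read counts per gene, with 19457 genes and 16 libraries. Per the labels' protocols, RNA was isolated on RNeasy columns and made into TruSeq RNA libraries. Per the submitters' processing notes, reads were checked with FastQC 0.11.7, and mm10 is named as the genome. The sources used here name no aligner, counter or strand setting, so overlapping and antisense genes are uncertain. Columns marked NT were taken as WT by elimination. Every gene has at least 1 count in all 16 libraries, and 47 of 472 genes of the lists (Il1b, Tnf, Ccl2 and S100a8 among them) are not analysed here. A share of 82.9% of genes tested had an interaction SE under 0.5.

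The 8 libraries were fitted with edgeR 4.0.16 in R 4.3.3 by the quasi-likelihood test, with 1 coefficient per group and no covariate, after filterByExpr by group (18646 genes kept, 811 removed). TMM factors lay between 0.970 and 1.02, and p-values were adjusted by Benjamini-Hochberg over the 18646 genes, with a threshold of 0.05. The common biological coefficient of variation was 11.6%, with 4 residual degrees of freedom. SE is the absolute log2 value divided by the square root of F, and 95% intervals are approximate. CPM values are TMM-normalised. The procedure was tested on simulated data. Named were Lrrk2, the 10 genes in each direction of the interaction with the smallest p at a mean of at least 1 CPM (none passed the threshold), up to 4 members of each list described, by smallest p, and the 8 largest average changes in each direction that passed. Some genes that this rule covers are not reported here. Other genes named (such as Ifit3, Stat2, Irf9, Gfap, C1ra, Nr4a2, Arc, Psme4 and markers of other cells) were chosen after their values were seen. The members and lists were chosen with earlier results of these data known, and 3 lists, marked in the text, were added after the values were seen. As alternatives, size factors by RLE, DESeq2 1.42.0, voom in limma 3.58.1, no filter, a filter of 1 CPM in all 8 libraries, a fit of all 16 libraries, the replicate number as a block, the cortex marker level as a covariate, and the omission of each library were run.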

Additional observations from a re-analysis of the deposited data

How the results depend on the processing

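The genotype difference in the 3-to-15-day change had 0 calls in edgeR, 12 with DESeq2 and 1 (Rsad2, adjusted p = 0.0481) with the replicate block, and 0 to 4 with 1 library left out, the 4 being without WT 3 d replicate 2. RLE factors, limma-voom, both other filters, the fit of all 16 libraries and the cortex covariate gave 0. Unadjusted p-values under 0.05 numbered 539 and between 341 and 1478 with 1 library left out. The change in WT (129 calls) had 662 with DESeq2, 602 with all 16 libraries fitted, 68 without a filter and 698 with the replicate block. Left-out counts for WT ran from 16 (without WT 15 d replicate 2) to 316 (without WT 3 d replicate 2), and only without WT 3 d replicate 1 (119) was the count within 1.5 times the full one. The change in GS (50 calls) had 586 with DESeq2, 395 with all 16 libraries, 148 with the cortex covariate, 22 with at least 1 CPM in all 8 libraries, 19 with limma-voom, 16 without a filter and 630 with the replicate block. Left-out counts for GS ran from 0 (without GS 3 d replicate 2 or GS 15 d replicate 2) to 279 (without WT 3 d replicate 1), and each library left out moved it by over 1.5 times. The average change (1190) had 2034 with DESeq2, 2601 with all 16 libraries, 2296 with the cortex covariate, 2311 with the replicate block and 247 to 1474 with 1 library left out. At 3 d the genotypes differed in 1 gene, 15 with DESeq2, 2 with all 16 libraries, 16 with the replicate block (13 higher and 3 lower in GS, where the fit without it had the 1 lower) and 0 to 15 with 1 library left out. At 15 d they differed in 3 genes, 9 with DESeq2, 1 with all 16 libraries, 38 with the replicate block (34 higher and 4 lower, where the fit without it had 3 lower) and 0 to 4 with 1 library left out. Fewer samples or genes, or more, enter these fits by construction, and other causes were not tested.

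The replicate numbers were not treated as pairs, since nothing in the labels says what they share and not every correlation of same-numbered libraries' deviations from their group means was over 0.1. Over 15350 genes these correlations were 0.0446 and 0.0956 for 2 of the 6 pairs of groups and 0.144 to 0.340 for the other 4.

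Of the interactions of 74 named genes, 1147 values under the alternatives kept direction and side of the threshold, 15 passed it only there, and 16 turned sign. The sign of Lrrk2 (-0.068 to 0.33 with 1 library left out), P2ry12 (-0.72 to 0.033), Siglech (-0.51 to 0.018), Selplg (-0.090 to 0.60), Tyrobp (-0.099 to 0.96), Lgals3 (-0.66 to 0.95), Cd44 (-0.025 to 0.58) and Ly6c2 (-0.54 to 0.024) thus depended on 1 library. With the cortex covariate Selplg was at -0.15, Apoe at -0.089, Tyrobp at -0.19, Lgals3 at -0.25 and Ly6c2 at 0.087. The average change of Lcn2 lost its call with limma-voom and that of Fignl1 with limma-voom and without any of 5 libraries, and the other 14 kept theirs. The list medians of interferon response, MHC class I and II, myelin, complement and cytokine genes kept their sign under every alternative run. So did those of pan-reactive astrocyte, immediate early, heat shock, cortex and erythrocyte genes. The medians of cell cycle, microglia, monocyte, clearance, lysosome, cholesterol, pro-resolving, and choroid plexus and ependyma genes did not.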

Other observations

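Levels outside the comparison put the interferon genes in context. In uninjured striatum, on a scaling computed over all 16 libraries that differs slightly from the one above, Rsad2 was at 0.855 and 0.770 CPM in WT and 0.837 and 0.683 CPM in GS. Ifit1 was at 0.410 and 0.845 CPM in intact WT and 0.427 and 0.427 CPM in intact GS, and at 0.127 to 0.592 CPM in the 4 libraries taken 6 h after ATP. Iigp1 was at 0.534 and 0.601 CPM in intact WT and 0.598 and 0.273 CPM in intact GS. Rtp4 was at 1.23 and 0.826 CPM in intact WT and 1.20 and 1.03 CPM in intact GS. For these 4 genes the GS 15 d libraries, at 1.26 to 3.11 CPM, were nearer to the intact level than the WT 15 d libraries, at 3.00 to 7.05 CPM, and both lay above it. Ifit2, which that comparison does not cover, was at 3.85 and 5.03 CPM in intact WT and 3.74 and 3.79 CPM in intact GS. Opalin, in contrast, was at 23.1 and 20.3 CPM in intact WT and 17.8 and 11.8 CPM in intact GS.

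Psme4 was lower in GS at every stage: 56.2 and 50.9 CPM in intact WT against 24.9 and 27.0 CPM in intact GS, and 58.6 and 58.9 CPM in WT at 6 h against 33.2 and 33.1 CPM in GS at 6 h.

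Several genes near the top of the positive interactions are known from the hypothalamus and extended amygdala (Crh, Tac2, Irs4, Peg10, Baiap3). In a list of such genes written after this had been seen, 14 of 21 were measured and 12 had a positive interaction (median 0.48). Of these, 8 had an unadjusted p under 0.05, against 1.35% of all genes, but the list was written from these values and is no separate support. Hap1, a huntingtin-associated protein abundant there, was at 110 and 114 CPM in WT 3 d, 120 and 122 CPM in WT 15 d, 93.8 and 73.1 CPM in GS 3 d and 129 and 128 CPM in GS 15 d. The summed level of the list was 1081 to 1158 CPM in WT 3 d, 870 to 884 CPM in WT 15 d, 788 to 1035 CPM in GS 3 d and 952 to 999 CPM in GS 15 d, with GS 3 d replicate 2 the lowest library. The part of the tissue dissected in these values was not tested.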
